A study of Mus musculus with 10 samples.

Results

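The MiT/TFE transcription factors Mitf, Tfeb and Tfec were examined in wild-type mouse microglia by the H3K4me3 peaks at their promoters and by the PLAC-seq interactions of those promoters. The 3 genes were taken as named, out of 20696 autosomal protein-coding genes, and each start site was read from the GENCODE M21 annotation of mm10. Start sites of a gene within 500 bp of each other were counted as 1 promoter and alternative promoters were kept apart, which gave 9 promoters out of 27047 (4 for Mitf, 4 for Tfeb and 1 for Tfec). A promoter was called marked when a peak touched the 1 kb on either side of its start site in both H3K4me3 libraries, and an interaction was given to a gene when 1 of its 5 kb anchor bins held a start site.

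The series holds 10 samples of sorted CD45+ CD11b+ CX3CR1+ brain cells from C57/Bl6 mice. Those used here are wild type at the Sall1 enhancer and untreated as far as the labels say: 2 H3K4me3 ChIP-seq libraries, 2 PLAC-seq libraries merged into a single interaction list, and input DNA, which entered as the scaled control value of each peak. The methods of the study give young adult males for experiments with wild-type and Sall1 enhancer knockout mice, apart from females for immunostaining. The labels do not say how many animals went into each library, so the spread between replicates may be technical. Hi-C libraries of wild-type and Sall1 enhancer knockout microglia were not analysed here, so every value below describes a single genotype.

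MiT/TFE proteins are basic helix-loop-helix leucine zipper factors that bind E-box sequences as homodimers or as heterodimers with each other. TFEB drives genes of lysosome formation and autophagy and is held in the cytoplasm when mTORC1 phosphorylates it at the lysosome surface. MITF is best known as the regulator of melanocyte development and of osteoclast genes, and TFEC is known in mice as a factor of the macrophage lineage. The mark H3K4me3, trimethylated lysine on histone H3, lies over the start sites of active or poised genes. PLAC-seq joins chromatin contacts to H3K4me3 pull-down, so it lists contacts between marked promoters and distal regions.

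The sequences upstream of 5 promoters are shown because the contrast between marked and unmarked promoters of Mitf and Tfeb can be read in them. Each is the 250 bases before the first annotated start site, on the strand of the gene, read from the RefSeq GRCm38.p6 genome (mm10), with every CG dinucleotide in capitals. Mitf promoter 1 lies at chr6:97806802-97807051 on the plus strand and was marked. Mitf promoter 4, the 3′-most, lies at chr6:97991542-97991791 on the plus strand and had no peak. Tfeb promoter 1 lies at chr17:47736780-47737029 on the plus strand and was marked. Tfeb promoter 4, the last of that gene, lies at chr17:47785470-47785719 on the plus strand and had no peak. The Tfec promoter lies at chr6:16898442-16898691 on the minus strand and was weakly marked. With 2 CG dinucleotides it held fewer than the unmarked promoters shown, which held 4 and 5.
Mitf promoter 1: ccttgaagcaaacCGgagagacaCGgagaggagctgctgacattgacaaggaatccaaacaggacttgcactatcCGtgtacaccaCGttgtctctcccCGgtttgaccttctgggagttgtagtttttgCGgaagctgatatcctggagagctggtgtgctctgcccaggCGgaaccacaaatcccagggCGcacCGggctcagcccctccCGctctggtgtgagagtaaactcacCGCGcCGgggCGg
Mitf promoter 4: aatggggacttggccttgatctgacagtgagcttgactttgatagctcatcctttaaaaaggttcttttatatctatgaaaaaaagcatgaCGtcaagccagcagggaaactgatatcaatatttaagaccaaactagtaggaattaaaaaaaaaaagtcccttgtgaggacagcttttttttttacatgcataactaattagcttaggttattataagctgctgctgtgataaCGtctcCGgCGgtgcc
Tfeb promoter 1: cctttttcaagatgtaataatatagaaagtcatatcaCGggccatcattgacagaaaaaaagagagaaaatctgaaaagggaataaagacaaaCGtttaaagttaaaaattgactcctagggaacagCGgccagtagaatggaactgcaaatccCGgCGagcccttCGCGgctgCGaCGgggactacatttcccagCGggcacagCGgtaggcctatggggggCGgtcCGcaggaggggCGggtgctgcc
Tfeb promoter 4: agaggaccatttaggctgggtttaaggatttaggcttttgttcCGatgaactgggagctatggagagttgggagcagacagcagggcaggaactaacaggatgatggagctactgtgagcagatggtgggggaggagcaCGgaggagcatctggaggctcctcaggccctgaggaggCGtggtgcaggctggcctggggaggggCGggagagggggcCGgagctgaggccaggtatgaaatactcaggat
Tfec promoter 1: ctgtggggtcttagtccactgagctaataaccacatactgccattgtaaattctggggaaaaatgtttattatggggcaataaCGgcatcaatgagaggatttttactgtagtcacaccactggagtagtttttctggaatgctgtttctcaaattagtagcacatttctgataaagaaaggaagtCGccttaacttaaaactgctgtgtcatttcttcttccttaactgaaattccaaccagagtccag

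Each of the 3 genes had at least 1 promoter marked in both replicates, but 5 of the 9 promoters were marked and 4 were not. Over all autosomal protein-coding genes 59.4% were marked, and over all promoters 50.1% were, so neither count stands apart from its background. Tfec stood far below Mitf and Tfeb in both libraries. With the value of a gene taken as the tags per 10 M (10 M mapped tags) of its tallest promoter peak, Tfeb stood at 296 ± 61.0, Mitf at 248 ± 16.8 and Tfec at 11.9 ± 3.04 (mean ± SD, n = 2 libraries each). Among the 12291 marked genes, whose median was 220.4, these values exceeded those of 79.3% of genes for Tfeb, 61.1% for Mitf and 2.66% for Tfec.

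**Figure D1:**
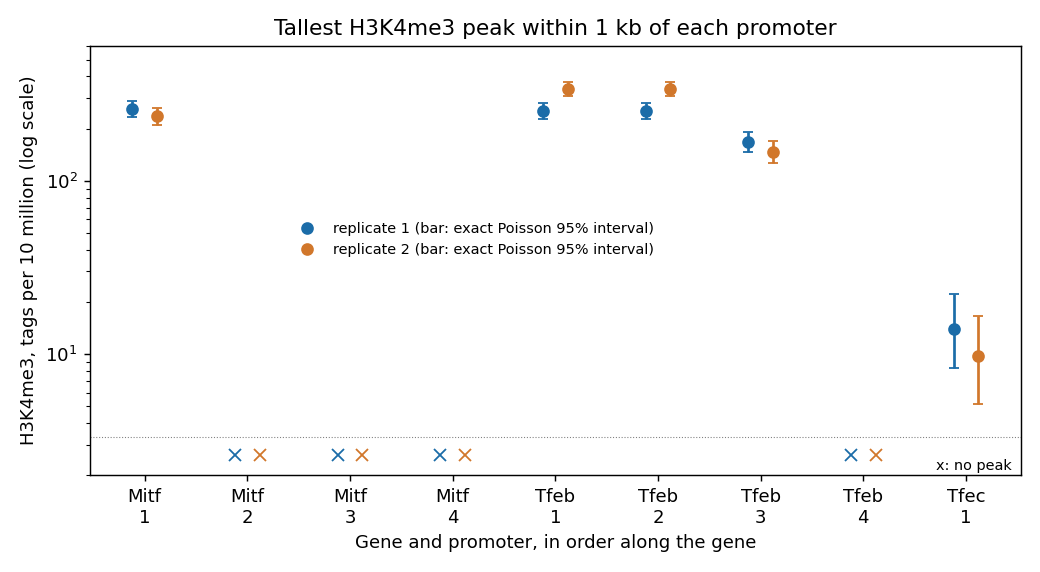
Height of the tallest H3K4me3 peak within 1 kb of each of the 9 promoters, in tags per 10 M on a log axis, with 1 point per replicate, bars for the exact Poisson 95% interval of the tag count, and crosses where no peak was listed. Mitf promoter 1 and Tfeb promoters 1 to 3 sit between 146.9 and 339.4, the Tfec promoter at 14 and 9.7, and the other 4 promoters have no peak in either replicate.

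Tfeb and Mitf were not separated by the height of the tallest peak. Tfeb was 0.98 times Mitf in replicate 1 and 1.44 times Mitf in replicate 2, so the order of the pair changed between libraries. With all peaks within 1 kb of a start site summed, Tfeb held 420.7 and 486.3 tags per 10 M and Mitf 259.4 and 235.7, and Tfeb was 1.62 and 2.06 times Mitf, higher in both libraries. Tfec lay below both in each library: Mitf exceeded it 18.5-fold and 24.3-fold, and Tfeb 18.1-fold and 35.0-fold, in replicates 1 and 2. The genes were measured in the same 2 libraries, and with 2 pairs the smallest two-sided p an exact permutation test within libraries allows is 0.5, so no test was made and the folds are read against the replicates alone.

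Mitf spans 214 kb of the plus strand (chr6:97807052-98021349, ENSMUSG00000035158.15), and its alternative first exons are known to give proteins with different amino termini. The 5′-most promoter, the start of transcripts Mitf-202 and Mitf-207, carried 259.4 tags per 10 M in replicate 1 (333 tags, exact Poisson 95% interval 232 to 289) and 235.7 in replicate 2 (322 tags, 211 to 263). The intervals of the replicates overlap, and both peaks lay over an annotated exon just inside the gene, centred 171 and 107 bp downstream of the start site. Over all marked promoters the median distances were 176 and 175 bp. The ChIP signal was 272-fold over scaled input in replicate 1 and 154-fold in replicate 2.

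No other Mitf promoter was marked. The promoters at 97929799, 97940918 and 97991792, which lie 122.7, 133.9 and 184.7 kb downstream of the first, had no peak within 1 kb in either library. The nearest peak in either list was at least 113.7 kb from each of them. The 3′-most of these starts transcripts Mitf-201 and Mitf-208, and the melanocyte form of MITF is known to start from the 3′-most promoter. Of 7 melanocyte genes, Tyr, Tyrp1, Dct, Pmel, Mlana and Sox10 had no peak at a promoter in either library, and Slc45a2, a melanosome transporter, had 9.35 and 13.4 tags per 10 M. The pattern of 1 marked promoter out of 4 was the most frequent among the 165 autosomal genes with 4 promoters, of which 58 had it. Across the 5105 genes with alternative promoters the 5′-most was marked in 47.1% and the 3′-most in 25.0%.

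Outside the gene, a weak peak at -18.4 kb from the first Mitf start site was found in both libraries, at 10.1 and 16.4 tags per 10 M. Its counts were 13 and 22 tags, with intervals of 5.38 to 17.3 and 10.3 to 24.8 tags per 10 M that overlap. It does not lie near any annotated Mitf start site.

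Tfeb spans 55.4 kb of the plus strand (chr17:47737030-47792419, ENSMUSG00000023990.18). Its first 3 promoters, at 47737030, 47737928 and 47738903, lie within 1.873 kb of each other and draw on the same 2 peaks of each library, so they are not separate measurements. The first peak lay 231 and 230 bp downstream of the 5′-most start site and held 253.2 tags per 10 M in replicate 1 (325 tags, interval 226 to 282) and 339.4 in replicate 2 (455 tags, 309 to 372). These intervals do not overlap: replicate 2 was 1.34 times replicate 1. In the same decile of genes by height, 7.49% differed more between the replicates, relative to the mean of the decile.

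The second Tfeb peak held 167.5 tags per 10 M in replicate 1 (215 tags, interval 146 to 191) and 146.9 in replicate 2 (197 tags, 127 to 169). It was listed at 2 different positions, centred 85 and 353 bp downstream of the second start site, with a gap of 82 bp between the peaks of the replicates. The first peak was the taller in both libraries, by 1.51-fold in replicate 1 and 2.31-fold in replicate 2. Together the pair reached over 0.936 kb in replicate 1 and 1.209 kb in replicate 2. The promoter at 47738903 was marked only through this second peak, whose centre lay at -890 and -622 bp relative to it, and it was not marked when the window was narrowed to 500 bp.

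The last Tfeb promoter, at 47785720 and 48.69 kb downstream of the first, starts transcript Tfeb-201 and had no peak within 16.5 kb in either library. Between the 2 ends of the gene, 3 weak peaks were called over introns in both libraries. The peak 17.6 kb into the gene held 10.1 and 6.71 tags per 10 M, that at 31.6 kb held 10.9 and 20.1, and that at 32.0 kb held 26.5 and 21.6. None of them passed 26.5, where the tallest Tfeb peak held 253.2 or more. They lie within 1 kb of start sites at 47754326 and 47769238 that only the comprehensive annotation holds, and with those transcripts 5 Tfeb promoters were marked, against 3 with the basic set.

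Tfec spans 65.1 kb of the minus strand (chr6:16833373-16898441, ENSMUSG00000029553.10) and has 1 promoter in the basic set, the start of transcript Tfec-201. Its peak was centred on the start site, 5 bp downstream of it in replicate 1 and 2 bp upstream in replicate 2. It held 14 tags per 10 M in replicate 1 (18 tags, interval 8.30 to 22.1) and 9.7 in replicate 2 (13 tags, 5.16 to 16.6), and the intervals overlap. The signal was 29.4-fold over scaled input in replicate 1 and 4.65-fold in replicate 2, where the input value under the peak was 2.8 against 0.6 in replicate 1. The lowest ratio listed in replicate 2 was 4.00, so the second call lies close to the limit of the list. The promoter was no longer marked when a peak had to reach 10 tags per 10 M in both libraries. A peak in an intron 14.6 kb downstream was listed only in replicate 2, at 7.46. The comprehensive annotation adds Tfec start sites at 16845996 and 16835263, and neither had a peak within 1 kb in either library.

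Peaks as low as that of Tfec, and some taller ones, also stood at marker genes of other cells. Among the markers, 2 of 5 neuron genes were marked at 8.21 to 14.9 tags per 10 M, 3 of 5 astrocyte genes at 7.01 to 23.9, and 1 of 5 border macrophage genes, Mrc1, at 15.6 and 11.9. Of 6 oligodendrocyte genes 2 were marked, Olig2 at 15.6 and 14.9 and Cnp at 148 and 123.1 with 3 interactions. Of 5 endothelial genes 2 were marked, Flt1 at 48.3 and 67.1 and Pecam1 at 15.6 and 11.2 with 11 interactions. Lyve1, Cd163, F13a1 and Ms4a7, the other border macrophage markers, had no promoter peak, nor had any of 7 monocyte, neutrophil and lymphocyte genes. All 10 microglia markers were marked, between 109.1 and 309.6. Whether another cell type adds to the Tfec peak was not tested.

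**Figure D2:**
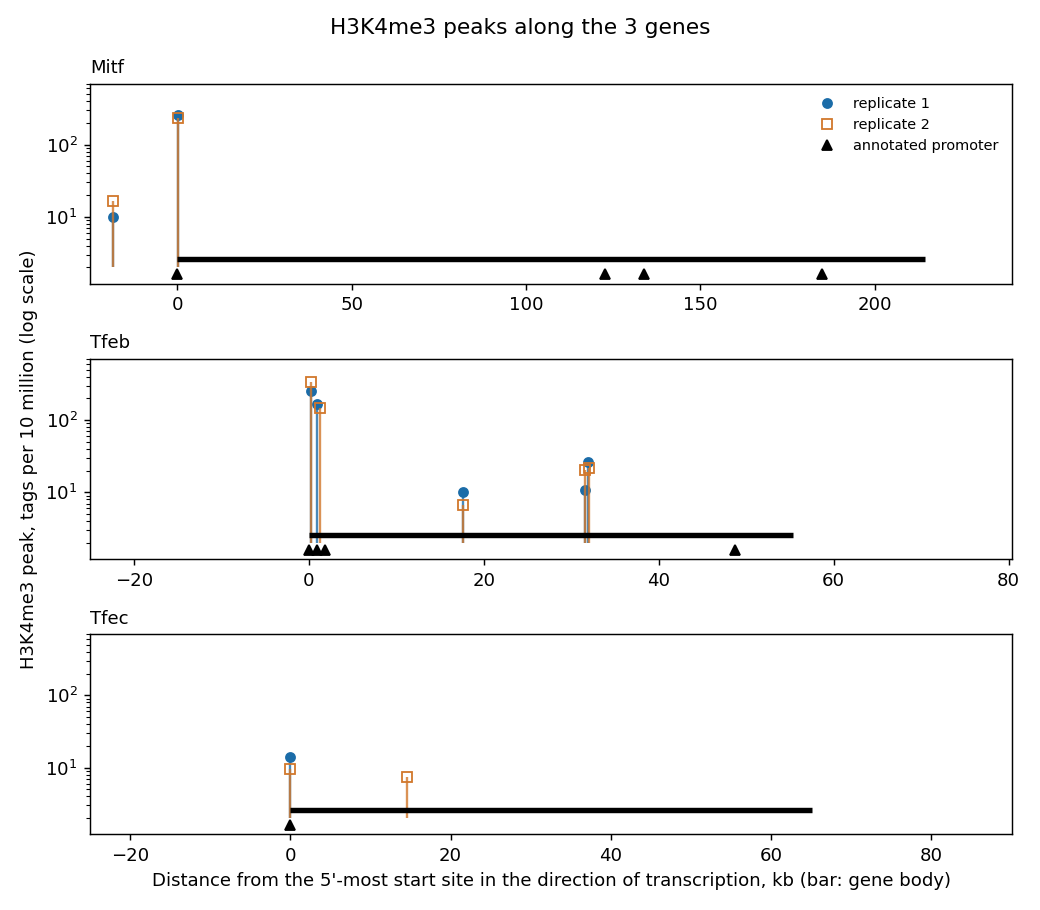
H3K4me3 peaks from 25 kb before to 25 kb beyond Mitf, Tfeb and Tfec, plotted by distance from the 5′-most start site in kb, with the height in tags per 10 M on a log axis, a point and stem per peak and replicate, a bar for the gene body and triangles for the promoters of the basic annotation. The tall peaks stand at the 5′ ends of Mitf and Tfeb, the intron peaks of Tfeb stay at or below 26.5, and the 3 downstream promoters of Mitf have no stem above them.

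The marked and unmarked promoters of Mitf and Tfeb also differed in CG content, which the choice of genes did not use. In the 250 bases upstream the marked promoters held 14 CG dinucleotides (Mitf promoter 1) and 14, 20 and 14 (Tfeb promoters 1 to 3). The unmarked promoters held 3, 3 and 4 (Mitf promoters 2 to 4) and 5 (Tfeb promoter 4), so the 2 sets do not overlap. Tfeb promoters 1 to 3 draw on the same 2 peaks of each library, so they are not separate marked cases. The Tfec promoter, with 2, had the fewest of the 9 and was marked nonetheless. Over all promoters the medians were 16 in marked and 2 in unmarked ones.

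Read against promoters of like CG content, the Tfec promoter was in the marked minority and low within it. Of the 10968 promoters with 0 to 4 CG, 10.2% were marked, and the marked ones had a median value of 104 tags per 10 M with quartiles of 34.6 and 201, all above the 11.9 of Tfec. Of the promoters with 10 to 14 CG, 80.9% were marked at a median of 210 and quartiles of 125 and 266, a range that holds Mitf promoter 1. Tfeb promoters 1 and 3 are of the same class: the first, with a mean of 296, lay above the upper quartile, and the other, at 167.5 and 146.9, lay between the quartiles. With 15 CG or more, the class of Tfeb promoter 2, 91.8% were marked, and with 5 to 9, the class of Tfeb promoter 4, 48.7% were.

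**Figure D3:**
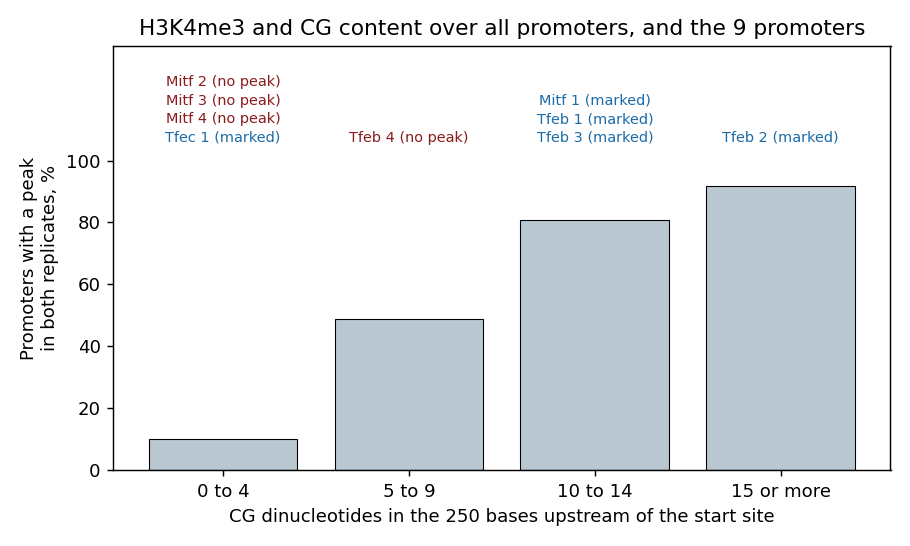
Percentage of all autosomal protein-coding promoters with an H3K4me3 peak in both replicates (bars), by the number of CG dinucleotides in the 250 bases upstream, with the 9 MiT/TFE promoters named above the class each falls in. The bars run from 10.2% at 0 to 4 CG to 91.8% at 15 or more, and Tfec is the marked promoter in the lowest class.

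Few of the motifs searched were found in these windows. The search covered both strands. The E-boxes that MiT/TFE factors are known to bind were searched as CACGTG and as CATGTG. The motif of PU.1-type ETS factors was searched as GAGGAAG. That of AP-1 was searched as TGANTCA. The TATA box was searched as TATAAA. No exact match to the E-boxes, the ETS motif or AP-1 was found at any of the 9 promoters. Sites that depart from these strings were not counted, for example AAGGAAG, which the Tfec window holds on both strands. Over all promoters CACGTG was held by 6.09%, CATGTG by 10.9%, GAGGAAG by 10.3% and TGANTCA by 6.32%. The only match was to TATAAA, read on the opposite strand 184 bases upstream of Mitf promoter 4, and 12.6% of all promoters hold that motif. No other searched motif was found at that site.

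No interaction had a start site of Mitf, Tfeb or Tfec in an anchor bin. The list held 26689 interactions of 10 to 1000 kb, and no bin overlapping the bodies of the 3 genes was in it, nor did any interaction span 1 of them. Of the marked autosomal genes 37.8% had at least 1 interaction, so most had none, and 0 of 3 genes is too small a count to set apart from that share. By deciles of H3K4me3 height, the share was 23.5% in decile 1 (lowest), where Tfec falls, 41.1% in decile 7, where Mitf falls, and 43.4% in decile 8, where Tfeb falls. The list holds only contacts of at least 7 read pairs, at least 2.00 times the expected number and a false discovery rate of at most 0.01, so a weaker contact of these promoters would not be in it.

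**Figure D4:**
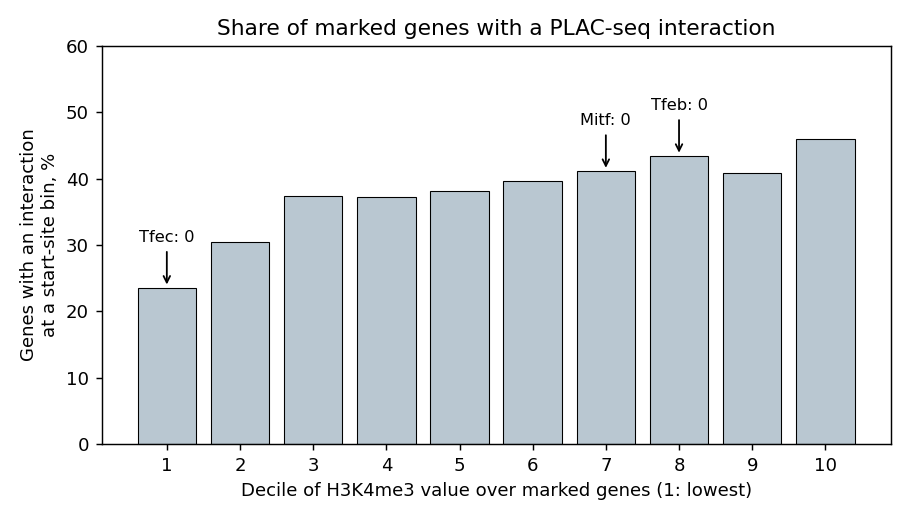
Percentage of marked autosomal genes with an interaction at a start-site bin (bars), by decile of H3K4me3 height, with arrows at the deciles of Tfec (1), Mitf (7) and Tfeb (8) and their number of interactions, which is 0. The share runs from 23.5% in the lowest decile to 46.0% in the highest.

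The distance to the nearest listed contact differed between the loci. Of the 7649 marked genes without an interaction, 77.4% lay nearer to a contact bin than Mitf, 67.6% than Tfec and 37.4% than Tfeb. Mitf lay in a stretch of 1550 kb without a contact bin, longer than the stretch around 74.98% of the 7519 marked genes that had no interaction and lay between listed bins, whose median was 475 kb. The nearest bins were 267 kb to its left and 1069 kb to its right. The left one joined bins at 97275001-97280000 and 97535001-97540000 with 9 read pairs against 2.02 expected (4.46 times, exact Poisson 95% interval 2.04 to 8.46). The right one reached the bin of Foxp1, a forkhead factor, with 9 read pairs against 2.04 expected (4.41 times, 2.02 to 8.38). Within 500 kb, Frmd4b, with 129.3 and 125.3 tags per 10 M, had 12 interactions and the other gene, Gm765, was unmarked.

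Tfeb lay in the shortest stretch, 215 kb, which exceeded that of 32.3% of the same genes. Its surroundings were dense in genes: 23 had a start site within 500 kb, of which 11 were marked and 9 had an interaction. The nearest bin, 42.0 kb to the left of Tfeb, held the start site of Prickle4 and was joined to the bin shared by Bysl and Med20 by 42 read pairs against 10.5 expected (4.00 times, 2.88 to 5.41, false discovery rate 8.99e-11). The nearest to the right was 118 kb away, with 12 read pairs against 3.48 expected (3.45 times, 1.78 to 6.02). Of the nearest genes, Pgc at -10.2 kb from a Tfeb start site was unmarked, and Frs3 at -41.8 kb and Mdfi at 47.5 kb were marked without an interaction.

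Tfec lay in the longest stretch, 3185 kb, longer than that of 88.1% of the same genes. Its 3 neighbours within 500 kb were all marked and none had an interaction: Tes at 235.3 and 191.7 tags per 10 M, and the caveolin genes Cav2 at 110.6 and 117.1 and Cav1 at 21.8 and 21.6. The nearest bin lay 162 kb to the right of the gene, at 17060001-17065000, and was in 2 interactions of 9 read pairs each, against 1.70 and 2.22 expected (5.29 and 4.05 times). The start site of Tes, 166.7 kb from that of Tfec, lies just beyond the right end of this bin. It falls in the next bin, so these interactions were not given to Tes. To the left the nearest bin was 2958 kb away, in a group of 4 interactions of the 2610001J05Rik bin that peaked at the bin of Tmem168, with 28 read pairs against 4.00 expected (7.01 times, 4.66 to 10.1).

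**Figure D5:**
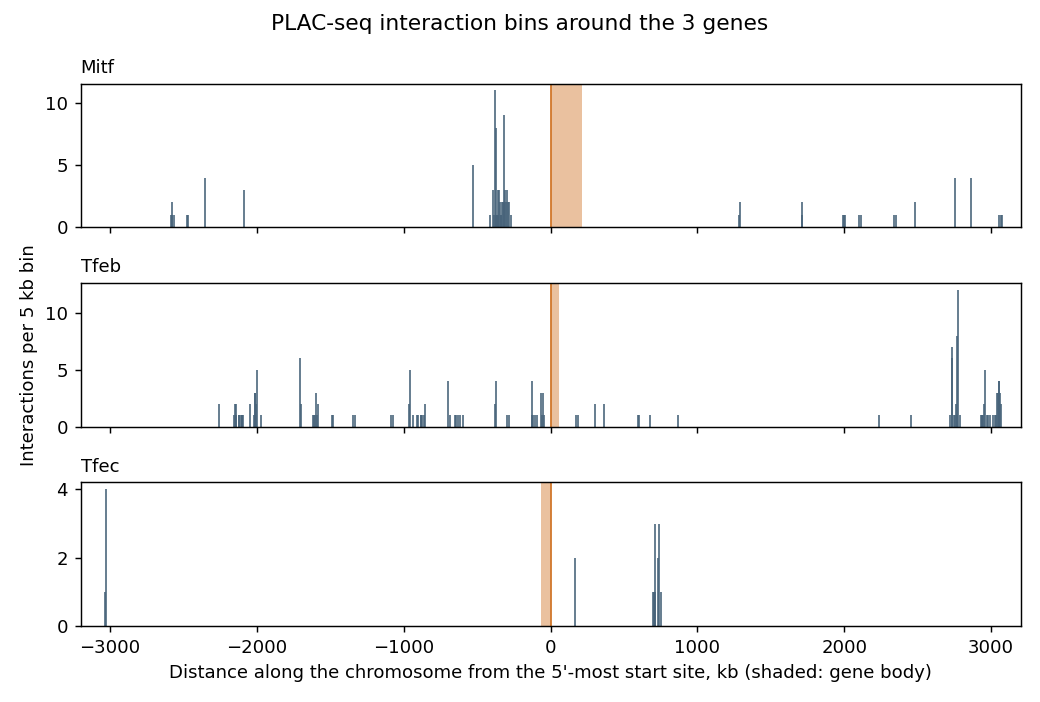
Number of PLAC-seq interactions of each 5 kb bin within 3200 kb of the 5′-most start site of Mitf, Tfeb and Tfec, by distance along the chromosome in kb, with the gene body shaded. No bin stands in the shaded bodies. The clear stretch around the gene is 1550 kb for Mitf, 215 kb for Tfeb and 3185 kb for Tfec.

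By height in both libraries and number of interactions together, the genes most like Mitf were 1110059G10Rik, Kif15 and Ppa1, which shared its 2 values and its 0 interactions. Those most like Tfeb were Stam, Mrps26 and Bbof1, at 254.0 to 255.5 tags per 10 M in replicate 1 and 340.1 to 342.4 in replicate 2. Those most like Tfec were Acot11, Gucy1a2 and Ptprr, with the same 14 and 9.7. The likeness is a distance over 2 libraries and 1 merged interaction list, so it describes these values and nothing further.

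The paralog Tfe3, the other member of the family, lies on the X chromosome, from which the interaction list holds no entry. Its tallest promoter peak held 180 tags per 10 M in replicate 1 (interval 158 to 205) and 182.7 in replicate 2 (161 to 207). These heights lay below Mitf and Tfeb and above Tfec in both libraries, but were not adjusted for the single X chromosome of males. Whether that order holds per gene copy was not tested. Tfe3 was marked at both of its promoters, which lie 1.301 kb apart, with 3 peaks in each library within reach of the second.

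The genes listed for the control of MiT/TFE factors were marked throughout: 22 of 22 in the list of mTORC1, Rag GTPase, Ragulator, folliculin, calcineurin and related genes, with a median of 288 tags per 10 M, where 59.4% of all autosomal genes were marked. Rragb, a Rag GTPase gene on the X chromosome, counted as marked at 10.9 and 8.95, as low as Tfec without adjustment for copy number. This list includes Tfe3, shares Mcoln1 with the list of reported targets below and was not chosen blind to these data. The tallest were Mlst8, a subunit of mTORC1 (371.6 and 385.6), Fnip1, a partner of folliculin (367.7 and 385.6), and Ppp3r1, the regulatory subunit of calcineurin, the phosphatase that acts on TFEB (359.9 and 390.1). An interaction was listed for 6 of the 20 autosomal genes, against 37.8% of marked genes in all. The most were 7 for Tsc2, an inhibitor of mTORC1 signalling, and 4 for Rptor, the mTORC1 subunit that binds substrates, followed by 1 each for Mlst8, Fnip2, Mcoln1 and Ppp3r1.

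Of 18 reported lysosome and autophagy targets of the family, 16 were marked, with a median of 314 tags per 10 M, against 59.4% of all autosomal genes. Map1lc3b, which encodes a protein of the autophagosome membrane, stood highest (432.4 and 487.8), before Uvrag (409 and 431.1), a regulator of autophagosome maturation, and the protease gene Ctsb (351.4 and 390.9). Gpnmb, a lysosomal membrane glycoprotein, and Ppargc1a, a coactivator of mitochondrial genes, had no promoter peak in either library. An interaction was listed for 7 of the 16, against 37.8% of all marked genes, with 7 for the protease gene Ctsd and 2 for Ctsb.

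Of 9 genes listed as osteoclast genes, 2 were marked, against 59.4% of all autosomal genes. Acp5, Ctsk, Oscar, Dcstamp, Ocstamp, Atp6v0d2 and Calcr had no promoter peak in either library. The marked pair was Nfatc1, the transcription factor of osteoclast formation (305.4 and 379.7 tags per 10 M), and Tnfrsf11a, the receptor RANK (301.5 and 277.5), each with 4 interactions. Microglia markers, for scale, had an interaction in 8 of 10 cases, with 19 for Sall1, and Csf1r and Trem2 had none, as the 3 MiT/TFE genes.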

How the data were processed

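Sorted wild-type microglia were profiled by H3K4me3 ChIP-seq (2 libraries, each with its own peak list) and PLAC-seq (2 libraries, 1 merged list). Reads were mapped to mm10, and the submitters' processing notes name Bowtie2 and HOMER. In the peak lists the authors deposited the signal (tags per 10 M), the tag count, the scaled input signal and the fold over input of each peak. Depth was 12.8 and 13.4 M tags, as tag count over value, with 27845 and 26574 peaks of 184 and 188 bp. In replicate 2, 23.7% of the peaks over 50 tags, that of Mitf among them, had tag counts more than 0.5% above what their value implies, for which no reason is given. For each pair of 5 kb bins, MAPS gave the deposited count of read pairs, the expected number and the false discovery rate (an adjusted p-value).

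Start sites were those of protein-coding transcripts in the GENCODE M21 basic set. All 7 RefSeq promoter sequences of the genes matched the genome. Intervals are exact Poisson 95% intervals and cover counting error only, since tags are not independent molecules. No test between groups was possible. The genes, the lists and the tests were chosen with earlier results of these data known. Named genes were the members, their 3 most alike genes each, and from each of 3 lists the unmarked genes, the 3 tallest and the 3 with most interactions, except that ties at 1 interaction among the reported targets are not named and 1 item is not reported here. The joins of peaks to start sites and of interactions to bins were tested on simulated data. The tools were Python 3.11.15, pandas 2.3.3, SciPy 1.17.1 and pysam 0.24.0. Alternatives covered the window, the merging distance, the transcript set, leaving out a replicate, and thresholds on peaks and interactions.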

Additional observations from a re-analysis of the deposited data

How the results depend on the processing

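Counts of 0 interactions held for Mitf, Tfeb and Tfec under all 8 alternatives (24 of 24 values), of which the anchor bin over the gene body was added after seeing the data. Mitf kept 1 marked promoter under every alternative. Leaving out 1 H3K4me3 library at a time gave 235.7 to 259.4 tags per 10 M for Mitf, 253.2 to 339.4 for Tfeb and 9.7 to 14 for Tfec. Summing all peaks in the window brought Tfeb to 453.5. Tfeb had 5 marked promoters with the start sites of all annotated transcripts, 5 with the protein-coding transcripts of the comprehensive set (added after seeing the data), 2 with a 500 bp window and 1 when start sites within 1 kb were merged. Tfec had 0 when peaks had to reach 10 tags per 10 M. The share of genes marked was 57.6% with a 500 bp window and 60.8% with 2.5 kb, against 59.4% at 1 kb. The share of marked genes with an interaction, 37.8% over the whole list, was 24.6% with the false discovery rate limited to 0.0001, 23.0% with at least 20 read pairs, 21.3% with read pairs at least 4 times expected and 24.8% with summits only. No paired analysis was possible because no result comes from a test between groups and the PLAC-seq replicates are merged in 1 list.

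The limits are those of lists. Signal below the lowest listed values, 3.9 and 2.24 tags per 10 M, and contacts under the thresholds of the caller are not in them. Interactions have no replicate error. Tfec rests on 18 and 13 tags.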
